A study of Homo sapiens with 21 samples.

Results

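DNA methylation and Polycomb repressive complex 2 (PRC2) are among the enzymatic routes by which a human cell keeps genes silent. The 10 genes described here write, copy or remove these marks: DNMT1, DNMT3A, DNMT3B, UHRF1, TET1, TET2, TET3, EZH2, EED and SUZ12. They were chosen by name from the 65065 genes of the deposited table, and no threshold on a value enters the rule, though the choice was made with earlier results of these data known. All 10 were found under their symbols, and all 10 passed the filter on low counts.

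The study gave extracellular vesicles (EVs), membrane particles that cells release and other cells can take up, to HCT-116 cells, an established human colorectal carcinoma line. The EVs were isolated by the GlyExo-Capture method from serum of patients with hepatocellular carcinoma (HCC+ EVs) or, as the comparison source, of healthy people (HCC- EVs). Each source was given at 0.048, 0.24 and 1.2 mg/mL, and a Blank group served as control, with 3 libraries of polyA RNA in each of the 7 groups and 21 in all. Every group is of HCT-116 cells in medium with exosome-depleted serum, and the labels name no genotype or further agent, no time of exposure and no number of serum donors. Separate cultures are not named in the labels for the libraries within a group, so p-values measure the spread between these libraries, which may be technical.

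Library totals lay between 31.22 M and 64.01 M counts (M, mega), and no pair of libraries held identical counts. The 6 libraries at 1.2 mg/mL stood apart from the other 15 on the first principal component, which held 34.6% of the variance. All 6 epithelial markers checked (EPCAM, KRT8, KRT18, KRT19, CDH1 and CDX2) were detected in every group, and summed to 3900 to 4150 CPM at 1.2 mg/mL of HCC+ EVs and 3290 to 3560 CPM at 1.2 mg/mL of HCC- EVs, against 3670 to 4470 CPM in Blank. With HCC- EVs, KRT18 (log2 fold change -0.46), EPCAM (-0.31) and KRT8 (-0.27) were called lower than in Blank and CDX2 (0.32) higher, but under total counts EPCAM (-0.03, adjusted p = 0.722) and KRT8 (0.01, adjusted p = 0.864) were not called, nor was EPCAM with GC and length trends taken out (0.07, adjusted p = 0.247). Markers of other cells moved with the highest dose at low levels. HLA-DRA of the leukocyte list and VWF of the endothelial list were called higher than in Blank with both EV sources. CD14 and LYZ of the leukocyte list and PECAM1 of the endothelial list averaged 0.138, 0.0166 and 0.0896 CPM in Blank. Their passing the filter on low counts thus rested on groups given EVs, and their calls with both sources are not counted. The summed level of 8 leukocyte markers, 3 of them at 0, was 2.97 to 4.19 CPM with HCC+ EVs and 5.09 to 6.96 CPM with HCC- EVs, against 1.15 to 1.55 CPM in Blank, and 4 endothelial markers summed to 2.9 to 3.67 CPM and 5.86 to 7.88 CPM, against 0.64 to 0.846 CPM. These sums include CD14, LYZ and PECAM1, whose calls are not counted. PECAM1 alone averaged 1.59 CPM with HCC+ EVs and 3.91 CPM with HCC- EVs. The 6 platelet markers, with PPBP and PF4 at 0, summed to 20.4 to 22.1 CPM with HCC+ EVs and 13.3 to 16.4 CPM with HCC- EVs, against 27.5 to 31.7 CPM in Blank. Most of that sum was NRGN, which averaged 15.7 CPM with HCC+ EVs, 10.2 CPM with HCC- EVs and 23.6 CPM in Blank. NRGN was called lower with both sources (log2 fold change -0.59 and -1.22), and GP1BA with HCC- EVs (-0.76). The nuclear RNAs NEAT1 and MALAT1 summed to 342 to 403 CPM and 413 to 502 CPM, against 222 to 287 CPM in Blank. Of the 2, only NEAT1 was called higher with HCC+ EVs (log2 fold change 0.96) and with HCC- EVs (1.71). Erythroid markers summed to under 1 CPM in all 3 groups, hepatocyte markers to 3.08 to 3.52 CPM with HCC+ EVs and 2.19 to 3.33 CPM with HCC- EVs, against 2.06 to 2.29 CPM in Blank, and fibroblast markers, nearly all COL1A1, to 21.3 to 30.7 CPM and 28.3 to 34.1 CPM, against 14.2 to 17.7 CPM. SERPINA1 of the hepatocyte list was called higher than in Blank with HCC+ EVs (0.58, adjusted p = 0.0417). The part of these differences in the results below was not tested.

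As background, DNMT1 is the maintenance methyltransferase that copies methylation onto newly made DNA, and UHRF1 recognises hemimethylated DNA and recruits it. DNMT3A and DNMT3B add methylation to unmethylated sites, and the TET dioxygenases oxidise methylcytosine, which starts its removal. In PRC2, EZH2 methylates lysine 27 of histone H3 (H3K27), while EED and SUZ12 are core subunits needed for its activity. HCT-116 is a common model of DNA methylation, because DNMT1 and DNMT3B were disrupted in it by gene targeting. DNMT1, UHRF1 and EZH2 are also known as genes whose transcripts rise in dividing cells, in part through E2F factors.

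Positions are those of the deposited table on GRCh38, and reads were counted over the exons of each gene. DNMT1 (ENSG00000130816) lies on chr19:10133345-10231286 on the minus strand and UHRF1 (ENSG00000276043) on chr19:4903080-4962154 on the plus strand. DNMT3A (ENSG00000119772) lies on chr2:25227855-25342590, minus strand, and DNMT3B (ENSG00000088305) on chr20:32762385-32809356, plus strand. The demethylases are on the plus strand, TET1 (ENSG00000138336) on chr10:68560337-68694487, TET2 (ENSG00000168769) on chr4:105145875-105279816 and TET3 (ENSG00000187605) on chr2:73986404-74108176. In PRC2, EZH2 (ENSG00000106462) lies on chr7:148807383-148884321, minus strand, EED (ENSG00000074266) on chr11:86244753-86278813 and SUZ12 (ENSG00000178691) on chr17:31937007-32001038, both plus strand. Their exons together cover between 4522 bases for EZH2 and 16474 bases for TET2.

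The promoter sequences of the 4 genes with a match to an E2F-type motif are shown first, to set the letters beside that background. The motif searched was TTTNNCGC with each N being C or G, on both strands, in windows from 250 bases before to 50 bases after each start listed by RefSeq on GRCh38.p14. It was found in 4 of the 10 genes, against 3.99% of the 27305 genes with such a window and 3.31% of all 35116 windows. A gene counted if any of its windows matched. The 10 genes have 22 windows, more for each gene than over all genes, and the shares were not corrected for this. Among lists of other genes described below, it was found in 13 of 18 of DNA replication, 5 of 11 of the E2F and RB family and 4 of 10 other PRC2 subunits. It was found in 3 of 17 genes of mitosis, 0 of 20 PRC1 subunits and 0 of 12 genes of demethylation and TET co-factors. No match was found in the windows of DNMT3A, DNMT3B, TET1, TET2, TET3 and EED, which says only that these letters are not in those windows. UHRF1 has a further window downstream of those shown, chr19:4910117-4910416, and EZH2 has another, chr7:148883436-148883735, both without a match. The start of UHRF1 named downstream below is thus not its last. RefSeq starts of DNMT1, DNMT3B and UHRF1 lie inside the longer gene models of the deposited table. A match is a description of the letters and not a site of binding. In the lines below, capitals mark the motif, each sequence runs 5′ to 3′ along the strand of its gene, and positions count from the start with no base 0.

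DNMT1, chr19:10194904-10195203, minus strand, with the motif on the opposite strand from position -2: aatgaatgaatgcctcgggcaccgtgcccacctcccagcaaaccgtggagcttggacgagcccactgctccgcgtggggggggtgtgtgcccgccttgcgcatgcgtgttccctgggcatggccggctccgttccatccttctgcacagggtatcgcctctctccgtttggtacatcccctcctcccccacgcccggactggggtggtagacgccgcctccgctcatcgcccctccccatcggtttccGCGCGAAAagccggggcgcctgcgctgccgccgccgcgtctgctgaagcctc
UHRF1 upstream start, chr19:4909251-4909550, plus strand, with the motif on the opposite strand from position -14: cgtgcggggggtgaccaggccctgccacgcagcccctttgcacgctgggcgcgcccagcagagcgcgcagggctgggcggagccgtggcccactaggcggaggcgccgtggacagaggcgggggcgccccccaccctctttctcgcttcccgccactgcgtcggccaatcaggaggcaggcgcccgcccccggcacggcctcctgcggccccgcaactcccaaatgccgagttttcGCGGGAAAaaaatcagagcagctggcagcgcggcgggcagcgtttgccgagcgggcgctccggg
UHRF1 downstream start, chr19:4909894-4910193, plus strand, with the motif on the same strand from position -160: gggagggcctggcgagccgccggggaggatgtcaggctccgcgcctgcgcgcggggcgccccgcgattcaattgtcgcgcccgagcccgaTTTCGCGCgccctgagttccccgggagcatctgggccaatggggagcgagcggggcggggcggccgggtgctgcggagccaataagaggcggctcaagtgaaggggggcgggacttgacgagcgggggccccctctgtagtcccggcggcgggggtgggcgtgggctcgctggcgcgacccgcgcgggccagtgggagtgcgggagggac
EZH2, chr7:148884242-148884541, minus strand, with the motif on the same strand from position 2: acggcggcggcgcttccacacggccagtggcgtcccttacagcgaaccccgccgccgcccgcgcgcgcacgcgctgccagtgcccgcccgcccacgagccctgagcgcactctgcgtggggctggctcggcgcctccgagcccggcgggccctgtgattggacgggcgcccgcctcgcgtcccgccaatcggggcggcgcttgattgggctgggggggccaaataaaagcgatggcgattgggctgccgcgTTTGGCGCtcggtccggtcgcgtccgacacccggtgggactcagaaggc
SUZ12, chr17:31936757-31937056, plus strand, with the motif on the same strand from position -189: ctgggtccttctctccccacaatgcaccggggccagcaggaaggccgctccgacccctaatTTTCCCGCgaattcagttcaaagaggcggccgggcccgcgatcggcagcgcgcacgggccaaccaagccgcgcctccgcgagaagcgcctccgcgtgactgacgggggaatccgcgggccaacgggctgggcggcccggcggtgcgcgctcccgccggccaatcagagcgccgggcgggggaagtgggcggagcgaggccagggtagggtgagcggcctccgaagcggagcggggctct
TET3, chr2:73984660-73984959, plus strand, with no match and shown as a window with about the CpG content of that of EZH2: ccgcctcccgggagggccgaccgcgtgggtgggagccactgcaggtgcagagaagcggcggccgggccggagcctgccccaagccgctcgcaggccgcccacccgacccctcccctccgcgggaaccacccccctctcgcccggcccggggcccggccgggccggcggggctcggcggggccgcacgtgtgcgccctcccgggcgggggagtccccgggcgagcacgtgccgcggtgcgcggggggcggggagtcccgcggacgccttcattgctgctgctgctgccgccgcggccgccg

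The windows differ in their richness in CpG, the dinucleotide that DNA methylation acts on. The DNMT1 window shown holds 30 CpG, the EZH2 window 46, the SUZ12 window 40 and the TET3 window 45, against a median of 14 over all windows. The DNMT3B window of the table holds 3. The motif itself holds CpG, and its shares were not compared among windows of like CpG content.

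The genes differed widely in level. In RPKM, reads scaled to transcript length and library total and so the scale on which genes can be set beside each other, UHRF1 was highest in Blank at 53.1 ± 5.19 RPKM and DNMT1 next at 50.1 ± 2.2 RPKM (SD, n = 3), and their ranges overlap within that spread. EZH2 followed at 31.8 RPKM, SUZ12 at 16.0, DNMT3B at 11.4, EED at 6.01, TET3 at 3.72, DNMT3A at 1.57, TET2 at 1.51 and TET1 at 0.525 RPKM. DNMT3A and TET2 did not differ beyond their spread in Blank. The maintenance pair and EZH2 thus held the upper ranks and TET1 the lowest, with DNMT3B the more abundant of the 2 de novo enzymes. At 1.2 mg/mL of HCC+ EVs the order was the same except that TET2 (1.69 RPKM) stood above DNMT3A (1.59 RPKM). At 1.2 mg/mL of HCC- EVs DNMT1 (29.3 RPKM) stood above UHRF1 (20.7 RPKM), and TET3 (5.37 RPKM) above EED (3.14 RPKM).

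**Figure D1:**
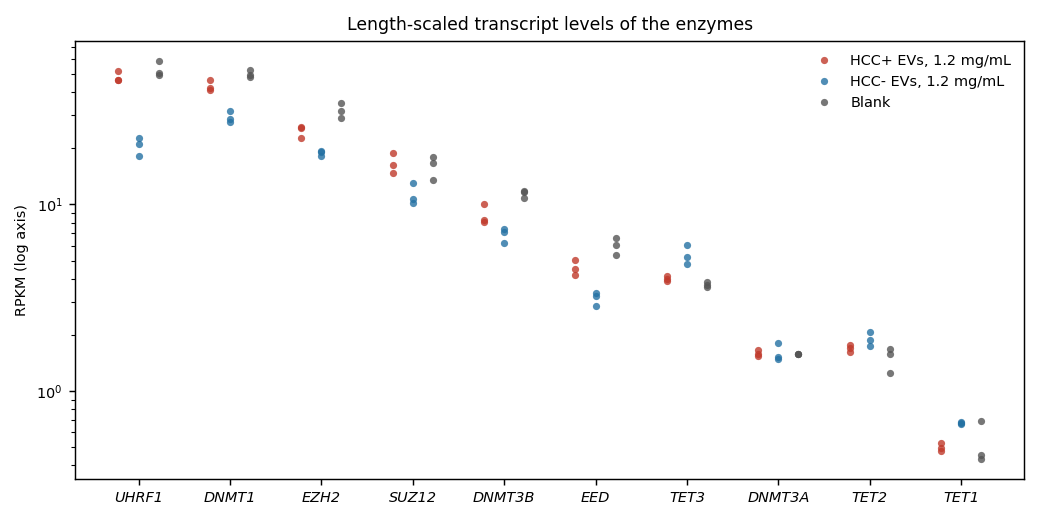
Length-scaled levels (RPKM, log axis) of the 10 genes in the libraries given 1.2 mg/mL of HCC+ or HCC- EVs and in Blank, with 1 point for each library. UHRF1 lies near 48.2 RPKM with HCC+ EVs and near 20.7 RPKM with HCC- EVs, against 53.1 RPKM in Blank, while DNMT3A lies near 1.6 RPKM in all 3 groups.

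Away from the highest dose most of the genes varied little. Over the 15 libraries of Blank and of 0.048 and 0.24 mg/mL, DNMT1 ran between 474 and 554 CPM (counts scaled to a common library total, with TMM factors), a coefficient of variation of 3.99%. The coefficient was 3.97% for DNMT3B, 5.15% for EZH2, 6.71% for TET3, 6.94% for UHRF1, 8.64% for EED, 9.33% for DNMT3A, 10.8% for SUZ12, 11.5% for TET2 and 23.5% for TET1. TET1 was also the gene with the fewest reads, between 106 and 406 counts in a library, where DNMT1 had 14259 to 31922. A difference in TET1 is therefore measured less closely than the same difference in DNMT1.

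**Figure D2:**
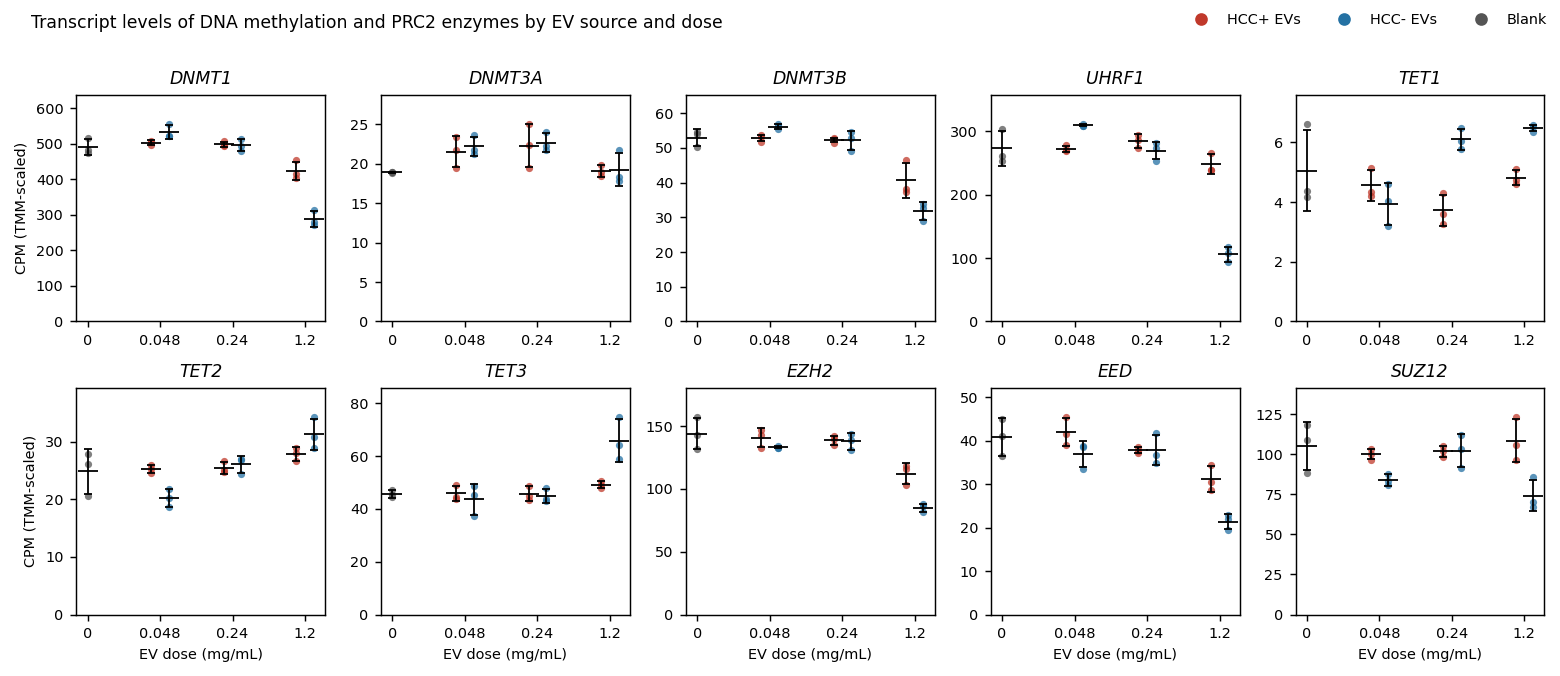
Levels (CPM, scaled by TMM factors, linear axes from 0) of the 10 genes by EV dose, with HCC+ and HCC- EVs and Blank in separate colours, 1 point for each library and bars for the mean and SD (n = 3). The values stay near those of Blank up to 0.24 mg/mL for most genes, and at 1.2 mg/mL UHRF1 is at 239 to 266 CPM with HCC+ EVs and 93.7 to 117 CPM with HCC- EVs.

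At 1.2 mg/mL of HCC- EVs against Blank, 6 of the 10 genes fell and 3 rose. The maintenance pair fell, with UHRF1 at 0.389 and DNMT1 at 0.586 of the Blank level, and so did DNMT3B and the PRC2 core of EZH2, EED and SUZ12. TET3, TET2 and TET1, which work against methylation, rose by 1.44-fold, 1.26-fold and 1.30-fold. DNMT3A was the only gene of the 10 that the test did not call, and under scaling by total counts it was called higher (0.31, adjusted p = 0.00755), a split of 4 higher and 6 lower. Background was high in this comparison, since 53.3% of all 19556 tested genes were called at an adjusted p under 0.05, 24.8% higher and 28.5% lower. The median log2 fold change was -0.62 over the 10 genes and 0.05 over all tested genes.

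Of the maintenance pair, UHRF1 had 108, 117 and 93.7 CPM at 1.2 mg/mL of HCC- EVs, against 261, 304 and 254 CPM in Blank. The highest of the treated libraries lay well under the lowest of Blank, and the log2 fold change was -1.36 ± 0.07 (SE, adjusted p = 2.97e-16). DNMT1 had 280, 312 and 270 CPM with HCC- EVs, against 483, 515 and 474 CPM in Blank, also without overlap (log2 fold change -0.77 ± 0.06, adjusted p = 7.98e-13). The fold change of UHRF1 was the larger, and the ratio of DNMT1 to UHRF1 in RPKM was 1.36 to 1.52 with HCC- EVs, against 0.891 to 0.979 in Blank. DNMT1 shares exon bases on its strand with S1PR2, a receptor gene with 14354 counts in all, which rose (0.66, adjusted p = 7.31e-06). In bulk RNA, fewer cells that express a gene and less of its RNA in each cell cannot be told apart.

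Of the de novo enzymes, DNMT3B had 32.8, 34.0 and 28.9 CPM at 1.2 mg/mL of HCC- EVs, against 50.2, 54.6 and 54.1 CPM in Blank. The groups did not overlap (log2 fold change -0.73 ± 0.08, adjusted p = 1.31e-09). DNMT3A had 18.3, 21.7 and 17.8 CPM, against 18.9, 19.0 and 18.8 CPM in Blank, and the treated libraries lay on both sides of Blank (log2 fold change 0.03 ± 0.10, adjusted p = 0.821). The RPKM ratio of DNMT3B to DNMT3A was 4.07 to 4.64 with HCC- EVs, against 6.91 to 7.48 in Blank.

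Among the demethylases, TET3 had 64, 58.9 and 74.6 CPM at 1.2 mg/mL of HCC- EVs, against 44.4, 45.4 and 47.2 CPM in Blank, with all treated libraries above (log2 fold change 0.53 ± 0.09, adjusted p = 4.53e-06). TET2 had 34.2, 28.9 and 30.8 CPM, against 26.1, 20.5 and 27.9 CPM in Blank (log2 fold change 0.34 ± 0.09, adjusted p = 0.00292). The TET2 groups did not overlap, but the gap between them was narrow, and without Blank replicate 2 the call was lost (0.21, adjusted p = 0.0559). TET1 had 6.36, 6.51 and 6.58 CPM, against 6.60, 4.16 and 4.37 CPM in Blank, where replicate 1 lay above all treated libraries (log2 fold change 0.38 ± 0.16, adjusted p = 0.0439). The TET1 call was lost without any of the 3 treated libraries (adjusted p between 0.0602 and 0.0808), without Blank replicate 2 (0.25, adjusted p = 0.241) and without Blank replicate 3 (0.28, adjusted p = 0.203), as well as with no filter on low counts (adjusted p = 0.0619) and with only the groups compared in the fit (adjusted p = 0.0655).

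In PRC2, the catalytic subunit EZH2 had 86.1, 87.7 and 81.7 CPM at 1.2 mg/mL of HCC- EVs, against 143, 132 and 157 CPM in Blank (log2 fold change -0.76 ± 0.07, adjusted p = 2.34e-11). EED, which binds methylated H3K27, had 22.9, 21.9 and 19.4 CPM, against 41.2, 36.5 and 45.1 CPM in Blank (-0.94 ± 0.09, adjusted p = 3.72e-10). SUZ12, the scaffold subunit, had 85.6, 67.0 and 70.2 CPM, against 118, 88.4 and 109 CPM in Blank (-0.50 ± 0.09, adjusted p = 3.67e-05). None of the 3 overlapped with Blank, though SUZ12 came close. These falls shrank where trends with GC content and length were taken out, to -0.41 for EZH2, -0.44 for EED and -0.13 for SUZ12 (adjusted p = 0.0227). That correction also moved the median of all tested genes by 0.192 (log2), so part of each change was shared with the table as a whole. These 3 genes have GC contents of 42.7%, 33.0% and 38.0%, below the 52.3% to 55.4% of the DNMT genes, UHRF1 and TET3. TET1 and TET2, which rose, have 41.0% and 43.0%. The part of GC content in these falls was not tested. The genome holds a partial copy of SUZ12, SUZ12P1, which had 8724 counts over all libraries and did not pass the test (log2 fold change -0.05, adjusted p = 0.734).

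At 1.2 mg/mL of HCC+ EVs against Blank, 4 of the 10 genes fell: DNMT1, DNMT3B, EZH2 and EED. None rose in edgeR's test, none was higher at an unadjusted p under 0.05, and DESeq2 called none higher. All 4 also fell with HCC- EVs, a comparison that uses the same 3 Blank libraries, and the falls were smaller, between 0.763 and 0.864 of the Blank level. UHRF1, SUZ12, DNMT3A and the 3 TET genes did not pass the test. Of all tested genes 33% were called here, 15.6% higher and 17.4% lower, so the share of 4 in 10 lies near that of the table. The median log2 fold change was -0.10 over the 10 genes and 0.01 over all tested genes.

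DNMT1 had 404, 414 and 453 CPM at 1.2 mg/mL of HCC+ EVs, against 483, 515 and 474 CPM in Blank, without overlap (log2 fold change -0.21 ± 0.06, adjusted p = 0.00409). UHRF1 had 239, 239 and 266 CPM, against 261, 304 and 254 CPM in Blank, and these groups overlapped (log2 fold change -0.14 ± 0.07, adjusted p = 0.128). The ratio of DNMT1 to UHRF1, 0.887 to 0.911 with HCC+ EVs, overlapped with that of Blank. DNMT3B had 38.3, 37.2 and 46.4 CPM, against 50.2, 54.6 and 54.1 CPM in Blank, all below (log2 fold change -0.38 ± 0.08, adjusted p = 1.93e-04). DNMT3A, at 18.9, 18.5 and 19.9 CPM against 18.9, 19.0 and 18.8 CPM in Blank, had a log2 fold change of 0.02 ± 0.10.

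EZH2 had 103, 116 and 118 CPM at 1.2 mg/mL of HCC+ EVs, against 143, 132 and 157 CPM in Blank (log2 fold change -0.36 ± 0.07, adjusted p = 6.08e-05). EED had 28.6, 34.4 and 30.6 CPM, against 41.2, 36.5 and 45.1 CPM in Blank (-0.39 ± 0.09, adjusted p = 0.0011). Both lay below Blank in every library. SUZ12, by contrast in value, had 96.7, 123 and 106 CPM, against 118, 88.4 and 109 CPM in Blank, and its libraries overlapped (0.05 ± 0.09, adjusted p = 0.75). TET3 libraries, at 50.6, 48 and 49.0 CPM, all lay above the 44.4 to 47.2 CPM of Blank, but the difference did not pass the test (0.11 ± 0.09, adjusted p = 0.37). TET2 (0.17 ± 0.09, adjusted p = 0.177) and TET1 (-0.06 ± 0.16, adjusted p = 0.832) did not pass it either.

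The 4 calls with HCC+ EVs held with each of the 6 libraries left out in turn, but not under every scaling. Under scaling by total counts, which moved the median of all genes by 0.12 (log2), the DNMT1 call was lost (-0.09, adjusted p = 0.222) and TET2 was called higher (0.29, adjusted p = 0.0222), a split of 1 higher and 3 lower. Taking out GC and length trends moved that median by 0.0565. With these trends taken out, the EED call was lost (-0.20, adjusted p = 0.064), UHRF1 was called lower (-0.17, adjusted p = 0.00758) and SUZ12 higher (0.19, adjusted p = 0.00146).

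**Figure D3:**
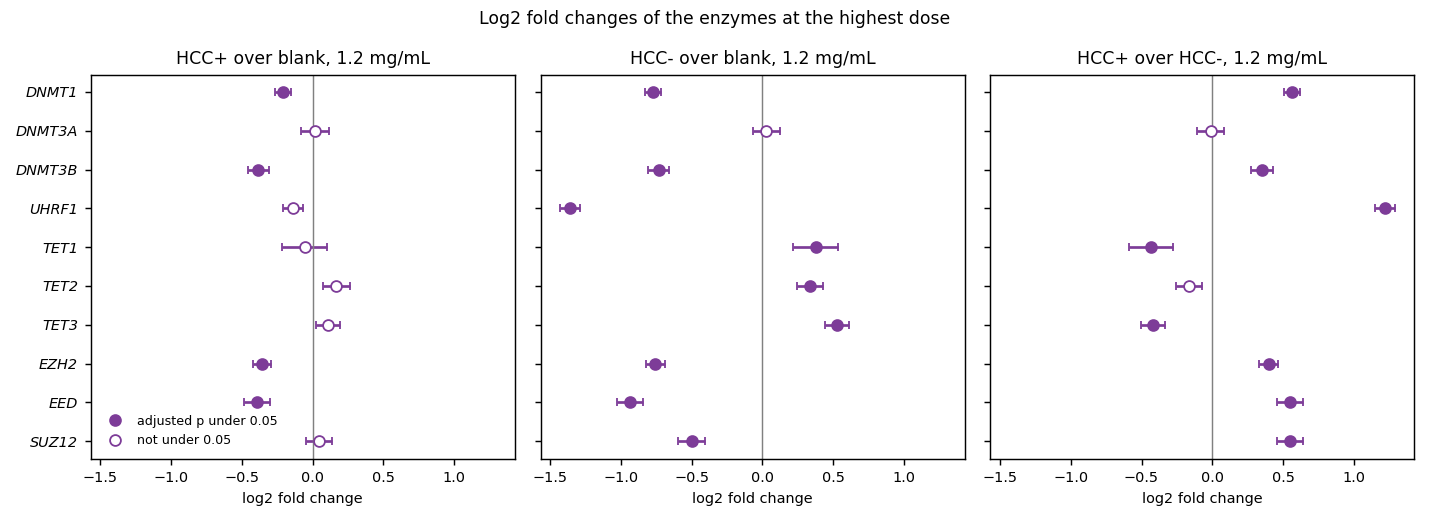
Log2 fold changes with standard errors of the 10 genes at 1.2 mg/mL for HCC+ EVs against Blank, HCC- EVs against Blank and HCC+ against HCC- EVs. Filled points have an adjusted p under 0.05. UHRF1 is at -0.14 with HCC+ EVs and -1.36 with HCC- EVs, and at 1.22 between the sources.

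Set directly against each other at 1.2 mg/mL, 6 genes were higher and 2 lower with HCC+ than with HCC- EVs. The 6 were those that fell with HCC- EVs, UHRF1, DNMT1, DNMT3B, EZH2, EED and SUZ12, and the 2 were TET3 and TET1. Background was 35.3% of tested genes called, 22.6% higher and 12.7% lower. UHRF1 had 239, 239 and 266 CPM with HCC+ EVs, against 108, 117 and 93.7 CPM with HCC- EVs. This was the widest gap among the 10, 2.33-fold (log2 fold change 1.22 ± 0.07, adjusted p = 2.72e-14). DNMT1 was 1.47-fold higher (adjusted p = 3.99e-09), with 404 to 453 CPM with HCC+ EVs against 270 to 312 CPM with HCC- EVs.

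In PRC2, SUZ12 and EED were each 1.46-fold higher with HCC+ than with HCC- EVs (adjusted p = 2.54e-05 and 1.97e-05) and EZH2 1.32-fold (adjusted p = 1.41e-05), with no overlap in any of the 3. DNMT3B was 1.27-fold higher (log2 fold change 0.35 ± 0.08, adjusted p = 5.02e-04). Its call was lost under scaling by total counts (0.19, adjusted p = 0.0568). TET3 was at 50.6, 48 and 49.0 CPM with HCC+ EVs, against 64, 58.9 and 74.6 CPM with HCC- EVs (log2 fold change -0.42 ± 0.09, adjusted p = 2.2e-04). TET1 was at 5.09, 4.60 and 4.74 CPM, against 6.36, 6.51 and 6.58 CPM (-0.43 ± 0.15, adjusted p = 0.0279), and its call was lost where replicate 2 or replicate 3 of either source was left out (adjusted p between 0.0515 and 0.0815). TET2 (-0.17 ± 0.09, adjusted p = 0.16) and DNMT3A (-0.01 ± 0.09, adjusted p = 0.942) were not called. Under scaling by total counts the split was 5 higher and 3 lower, with TET2 among the lower (-0.33, adjusted p = 0.00736), and with GC and length trends taken out it was 6 higher and 3 lower, again with TET2 (-0.24, adjusted p = 0.00557).

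The lower doses gave few calls. With 0.24 mg/mL of either source no gene of the 10 was called against Blank, where 0.00511% of tested genes were called with HCC+ EVs and 0% with HCC- EVs. At an unadjusted p under 0.05 these counts were 2 and 1, and DESeq2 called none either. With 0.048 mg/mL of HCC+ EVs none was called against Blank, none at an unadjusted p under 0.05 and none by DESeq2, where 0% of tested genes were called. DNMT3A lay above Blank in all 3 libraries of these 3 groups, at 19.5, 25.0 and 22.4 CPM with 0.24 mg/mL of HCC+ EVs, 21.8, 24 and 22.3 CPM with 0.24 mg/mL of HCC- EVs, and 21.7, 19.5 and 23.4 CPM with 0.048 mg/mL of HCC+ EVs, against 18.9, 19.0 and 18.8 CPM in Blank. None of these differences passed the test (adjusted p between 0.776 and 0.998), and the 3 share the Blank libraries.

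At 0.048 mg/mL of HCC- EVs, SUZ12 and TET2 were called lower than in Blank, in a comparison in which 16.4% of tested genes were called, 8.28% higher and 8.16% lower. SUZ12 had 87.8, 80.7 and 83.5 CPM with HCC- EVs, against 118, 88.4 and 109 CPM in Blank, below it in every library (log2 fold change -0.32 ± 0.09, adjusted p = 0.0213). TET2 had 18.6, 20.3 and 21.8 CPM, against 26.1, 20.5 and 27.9 CPM in Blank, with overlap (-0.30 ± 0.10, adjusted p = 0.0332). Both calls were lost with GC and length trends taken out, SUZ12 at -0.06 (adjusted p = 0.665) and TET2 at -0.15 (adjusted p = 0.432). That of SUZ12 was lost without replicate 2 or 3 of the treated group or replicate 1 or 3 of Blank (adjusted p between 0.0585 and 0.196), and that of TET2 without replicate 1 or 2 of the treated group or replicate 1 or 3 of Blank (adjusted p between 0.0903 and 0.234). DNMT1, DNMT3A, DNMT3B and UHRF1 lay above Blank in all 3 libraries without passing the test, UHRF1 at 311, 309 and 308 CPM against 261, 304 and 254 CPM in Blank (0.18 ± 0.07, adjusted p = 0.0732). DESeq2 called UHRF1 (adjusted p = 0.0463) and DNMT3A (adjusted p = 0.0483) higher there.

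Between the sources at the lower doses no gene of the 10 was called. At 0.24 mg/mL, where 0% of tested genes were called, TET1 was the gene farthest apart, with 4.29, 3.59 and 3.28 CPM with HCC+ EVs against 6.03, 5.78 and 6.49 CPM with HCC- EVs and no overlap (log2 fold change -0.71 ± 0.16, adjusted p = 1). It was the 1 gene of the 10 at an unadjusted p under 0.05, and DESeq2 called none. At 0.048 mg/mL, where 3.54% were called, 1.08% higher and 2.46% lower, 3 genes had an unadjusted p under 0.05, and TET2 came nearest to a call (0.32 ± 0.09, adjusted p = 0.0512). DESeq2 called TET2 there (0.31, adjusted p = 0.0169).

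From dose to dose, more of the genes were called in the step from 0.24 to 1.2 mg/mL than in the step below it. With HCC+ EVs, DNMT1, DNMT3B, UHRF1, EZH2 and EED were lower at 1.2 than at 0.24 mg/mL, where 29.2% of tested genes were called, 13.7% higher and 15.5% lower. None was called higher by edgeR or DESeq2, and TET1 alone was higher at an unadjusted p under 0.05 (log2 fold change 0.37 ± 0.16, adjusted p = 0.0813). UHRF1 had 239, 239 and 266 CPM at 1.2 mg/mL, against 273, 294 and 287 CPM at 0.24 mg/mL (log2 fold change -0.20 ± 0.07, adjusted p = 0.0296), so that it passed against this dose though not against Blank. Its call was lost without replicate 1 (-0.17, adjusted p = 0.129) or 2 (-0.18, adjusted p = 0.0961) at 1.2 mg/mL and without replicate 2 (-0.18, adjusted p = 0.109) or 3 (-0.19, adjusted p = 0.0815) at 0.24 mg/mL. That of EED (-0.28, adjusted p = 0.0185) was lost without replicate 1 (adjusted p = 0.132) or 3 (adjusted p = 0.0632) at 1.2 mg/mL and without replicate 1 at 0.24 mg/mL (adjusted p = 0.0645). Under scaling by total counts only DNMT3B and EZH2 of the 5 kept their call. With HCC- EVs, 7 genes were lower and 2 higher at 1.2 than at 0.24 mg/mL, where 51.8% were called, 28% lower and 23.9% higher, and the 2 were TET3 and TET2. DNMT3A was among the 7, at 18.3, 21.7 and 17.8 CPM against 21.8, 24 and 22.3 CPM (-0.24 ± 0.09, adjusted p = 0.0343). Its direction turned under scaling by total counts (0.02, adjusted p = 0.858), and its call was lost without replicate 1 or 3 at 1.2 mg/mL or replicate 2 at 0.24 mg/mL (adjusted p between 0.119 and 0.175). The SUZ12 call (-0.46, adjusted p = 1.17e-04) was lost under that scaling (-0.20, adjusted p = 0.0704). The TET2 call (0.27, adjusted p = 0.0157) was lost without replicate 1 at 1.2 mg/mL (0.21, adjusted p = 0.0907) or replicate 2 at 0.24 mg/mL (0.22, adjusted p = 0.0865).

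Between 0.048 and 0.24 mg/mL no gene was called with HCC+ EVs, none at an unadjusted p under 0.05 and none by DESeq2, where 0% of tested genes were called. With HCC- EVs, TET1 and TET2 were higher at 0.24 than at 0.048 mg/mL, where 8.71% of tested genes were called, 3.86% higher and 4.86% lower. TET1 had 6.03, 5.78 and 6.49 CPM at 0.24 mg/mL, against 4.59, 4.03 and 3.2 CPM at 0.048 mg/mL (0.62 ± 0.16, adjusted p = 0.022). TET2 had 26.8, 24.3 and 27 CPM, against 18.6, 20.3 and 21.8 CPM (0.37 ± 0.09, adjusted p = 0.0224). Neither gene overlapped between the doses, and both calls were lost with GC and length trends taken out (adjusted p = 0.162 for TET1 and 0.129 for TET2). Each was also lost without replicate 1 or 3 at 0.24 mg/mL and without replicate 1 or 2 at 0.048 mg/mL, and TET1 without replicate 3 at 0.048 mg/mL (adjusted p between 0.0615 and 0.194). None was called lower by edgeR, UHRF1 alone was lower at an unadjusted p under 0.05, and DESeq2 called it lower (-0.20, adjusted p = 0.031).

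Whether the difference between the sources itself differed between 1.2 and 0.048 mg/mL was tested as an interaction, the log2 difference of HCC+ from HCC- EVs at 1.2 mg/mL minus that at 0.048 mg/mL. It passed for 8 of the 10 genes, in 5 upward and in 3 downward, where 24.3% of tested genes passed, 16.7% upward and 7.63% downward. UHRF1 had the widest value (1.40 ± 0.10, adjusted p = 1.02e-11) and DNMT1 the next (0.64 ± 0.08, adjusted p = 5.05e-07). TET3 (-0.49 ± 0.12, adjusted p = 0.00284) and TET2 (-0.49 ± 0.13, adjusted p = 0.00589) were among the 3 downward, TET2 with a difference between the sources of -0.17 at 1.2 mg/mL and 0.32 at 0.048 mg/mL, neither of them called. Under scaling by total counts the split was 2 upward and 3 downward, with DNMT3B, EZH2 and EED no longer passing (adjusted p = 0.0987, 0.367 and 0.345). HCC- EVs at 0.048 mg/mL themselves differed from Blank, as given above, and so form part of these values.

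The order of the 7 groups shows the same pattern gene by gene. For DNMT1, DNMT3B, UHRF1, EZH2 and EED the 2 lowest means were those of 1.2 mg/mL, HCC- EVs below HCC+ EVs, and the ranges of these 2 groups did not overlap. HCC+ EVs at 1.2 mg/mL were also apart from the group next above for DNMT1, DNMT3B and EZH2, but overlapped with it for UHRF1 and EED. For TET3 and TET2 the 2 highest means were those of 1.2 mg/mL, and of these only TET3 with HCC- EVs, at 65.8 ± 8.02 CPM (SD, n = 3), was apart from the group next in order. For TET1 and DNMT3A every pair of neighbours in the order overlapped. SUZ12 ran from 109 ± 13.3 CPM with 1.2 mg/mL of HCC+ EVs to 74.3 ± 9.98 CPM with 1.2 mg/mL of HCC- EVs (SD, n = 3), with 84.0 ± 3.57 CPM at 0.048 mg/mL of HCC- EVs next above the lowest.

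Counted over the 10 genes without any test, libraries did not overlap with Blank for 5 genes at 1.2 mg/mL of HCC+ EVs, against 39.9% of all tested genes, and for 8 at 1.2 mg/mL of HCC- EVs, against 56.3%. The count was 1 at 0.24 mg/mL of HCC+ EVs, against 8.95%, 1 at 0.048 mg/mL of HCC+ EVs, against 8.45%, and 1 at 0.24 mg/mL of HCC- EVs, against 7.62%. At 0.048 mg/mL of HCC- EVs it was 5, against 27.6%. Between HCC+ and HCC- EVs it was 8 at 1.2 mg/mL, against 46.6%, 1 at 0.24 mg/mL, against 7.32%, and 6 at 0.048 mg/mL, against 32.3%. Between doses it was 6 for 1.2 against 0.24 mg/mL of HCC+ EVs, with 43.7% of all tested genes, and 9 for 1.2 against 0.24 mg/mL of HCC- EVs, with 58.1%. The step from 0.048 to 0.24 mg/mL gave 1 with HCC+ EVs, against 8.61%, and 6 with HCC- EVs, against 30.7%.

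Ratios between partners and paralogues within a library do not depend on the scaling of that library. EZH1, the paralogue of EZH2 that serves PRC2 in resting cells, rose with HCC- EVs (log2 fold change 0.68 ± 0.08, adjusted p = 1.18e-08). The RPKM ratio of EZH2 to EZH1 was 6.34 to 7.57 at 1.2 mg/mL of HCC+ EVs and 3.35 to 3.79 at 1.2 mg/mL of HCC- EVs, against 8.86 to 10.2 in Blank, with no overlap between any of the 3. The ratio of UHRF1 to its paralogue UHRF2 was 10.1 to 11.8 with HCC+ EVs and 4.56 to 6.13 with HCC- EVs, against 9.08 to 12.7 in Blank, so that HCC+ EVs overlapped with Blank. The ratio of DNMT3B to DNMT3A, 5.21 to 6.04 with HCC+ EVs, lay between those of HCC- EVs and Blank. Within PRC2, the ratio of EZH2 to SUZ12 was 1.36 to 1.61 with HCC+ EVs and 1.46 to 1.90 with HCC- EVs, against 1.75 to 2.15 in Blank. The ratio of EZH2 to EED was 5.06 to 5.78 with HCC+ EVs, which overlapped with the 5.22 to 5.43 of Blank, and 5.67 to 6.35 with HCC- EVs. The ratio of TET3 to TET1 overlapped among all 3 groups. In 2-sided exact permutation tests of 24 such differences the smallest p that 3 libraries against 3 allow is 0.10, so none can pass 0.05, and the adjusted value for differences without overlap was 0.185.

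**Figure D4:**
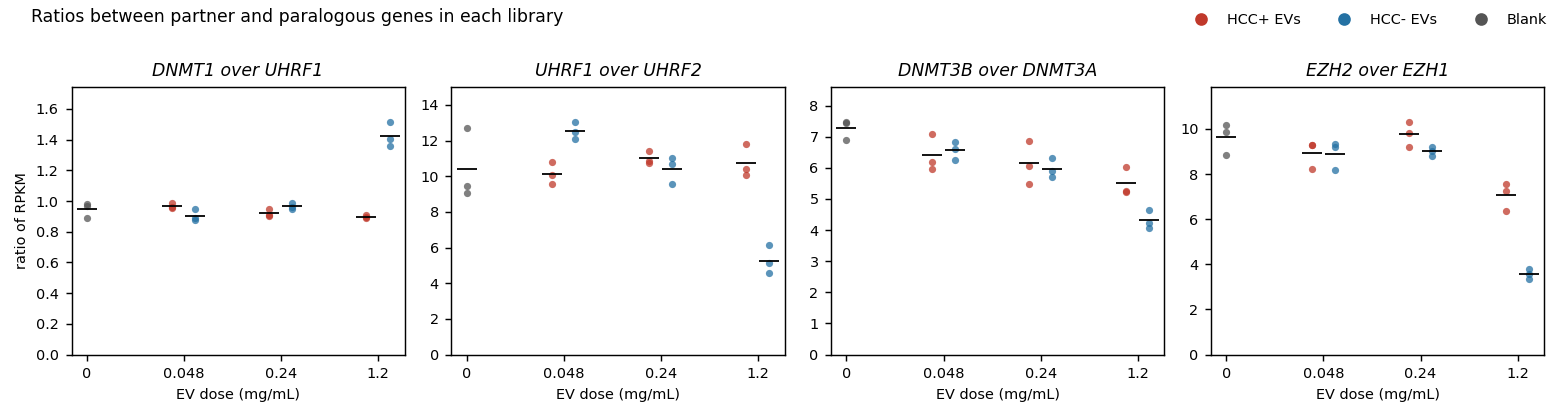
Ratios of RPKM between partner or paralogous genes by EV dose, 1 point for each library and a line at each mean on linear axes from 0, with HCC+ and HCC- EVs and Blank in separate colours. EZH2 over EZH1 is at 6.34 to 7.57 with 1.2 mg/mL of HCC+ EVs and 3.35 to 3.79 with 1.2 mg/mL of HCC- EVs, against 8.86 to 10.2 in Blank.

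For each gene, the other tested gene most like it was taken as the one with the highest Pearson r of log2 CPM over the 21 libraries, leaving out genes that averaged under 1 log2 CPM. Since the 6 libraries at 1.2 mg/mL stand apart, r over the other 15 is given too, and all values are descriptions of libraries that share these groups. DNMT1 was nearest to MCM2, a subunit of the replicative helicase (r = 0.991 over 21 and 0.851 over 15 libraries). UHRF1 was nearest to PDIA4, a chaperone of the endoplasmic reticulum (0.992 and 0.756), DNMT3B to TRIM25, a ubiquitin ligase (0.985 and 0.774), and EZH2 to FKBP5, a co-chaperone of steroid receptors (0.987 and 0.813). EED was nearest to WASHC5, a WASH complex subunit (0.98 and 0.804), and SUZ12 to PRKAR1A, a regulatory subunit of protein kinase A (0.976 and 0.962). TET2 was nearest to ATM, the DNA damage kinase (0.958 and 0.955), and TET3 to ASXL1, a partner of the deubiquitinase BAP1 (0.946 and 0.631). The nearest genes of DNMT3A, MIDEAS (0.792 and 0.717), and of TET1, RNPC3 (0.787 and 0.749), were less like them.

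Genes that work with these enzymes moved in both directions. Of 13 tested partners and readers of DNA methylation, 1 was higher and 5 lower with 1.2 mg/mL of HCC+ EVs against Blank, and 4 were higher and 7 lower with HCC- EVs. CDCA7 and HELLS, which together remodel nucleosomes so that DNA can be methylated, were among the lower. CDCA7 averaged 48.2 ± 6.63 CPM with HCC+ EVs (log2 fold change -1.13 ± 0.10, adjusted p = 4.89e-10) and 19.1 ± 2.81 CPM with HCC- EVs (-2.46 ± 0.11, adjusted p = 6.38e-18), against 106 ± 7.22 CPM in Blank (SD, n = 3 each). HELLS averaged 45.9 ± 3.61 CPM with HCC- EVs, against 118 ± 17.4 CPM in Blank (SD, n = 3 each; -1.36 ± 0.08, adjusted p = 9.77e-15). MBD3, of the NuRD complex, and ZBTB38, a reader of methylated DNA, were higher with HCC- EVs (0.71 and 0.77).

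The TET genes need 2-oxoglutarate, and IDH1 and IDH2 make it. Of the 16 genes of demethylation and TET co-factors, 1 was higher and 4 lower with HCC+ EVs and 2 were higher and 8 lower with HCC- EVs. IDH2 was at 25.0 ± 1.02 CPM with HCC- EVs, against 51.8 ± 6.13 CPM in Blank (SD, n = 3 each; log2 fold change -1.05 ± 0.08, adjusted p = 1.66e-12), and 0.92 (log2) higher with HCC+ than with HCC- EVs. OGT, the glycosyltransferase that binds TET proteins, was lower with HCC+ EVs (-0.33), as was TDG (-0.35), which excises the oxidised base. Both NEIL1 and NEIL2 are glycosylases of base repair, and they moved apart, NEIL1 higher (0.45 with HCC+ and 0.83 with HCC- EVs) and NEIL2 lower (-0.32 and -0.66).

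Of the 10 other tested PRC2 subunits, 2 were higher and 2 lower with HCC+ EVs and 3 were higher and 3 lower with HCC- EVs. RBBP7, a histone-binding subunit, fell in both (log2 fold change -0.42 and -0.93), as did PHF19 (-0.63 and -0.79), an accessory subunit that binds methylated H3K36. PHF1, its relative, rose with HCC+ EVs (0.68 ± 0.08, adjusted p = 1.14e-07), and JARID2, which helps recruit PRC2, rose in both (0.22 and 0.58). Of 23 subunits of PRC1, the complex that reads the PRC2 mark, 5 were higher and 7 lower with HCC+ EVs and 7 were higher and 11 lower with HCC- EVs, SCMH1 lower in both (-0.49 and -0.90). Of 10 tested enzymes of H3K27, H3K36 and the BAP1 complex, 1 was higher and 1 lower with HCC+ EVs and 6 were higher and 1 lower with HCC- EVs. There, KDM6B, the demethylase that removes the PRC2 mark, rose in both (0.39 and 0.89), and NSD2, which methylates H3K36, fell in both (-0.58 and -1.01).

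Both kinds of methyltransferase use S-adenosylmethionine. Of 10 tested genes of its cycle, 2 were higher and 2 lower with HCC+ EVs and 2 were higher and 5 lower with HCC- EVs. MAT2A, which makes it, averaged 315 ± 11.2 CPM with HCC+ EVs (log2 fold change -0.52 ± 0.06, adjusted p = 1.77e-08) and 262 ± 2.28 CPM with HCC- EVs (-0.79 ± 0.06, adjusted p = 3.76e-13), against 453 ± 30.0 CPM in Blank (SD, n = 3 each). MTAP, which salvages methionine, was 0.90 (log2) higher with HCC+ than with HCC- EVs.

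These splits depend on the scaling. Under scaling by total counts, which moved the median of all genes by 0.281 (log2) for HCC- EVs against Blank, 5 partners and readers of methylation were higher and 3 lower with HCC- EVs, 6 genes of demethylation were higher and 4 lower, 6 PRC2 subunits were higher and 2 lower, 11 PRC1 subunits were higher and 5 lower, and 4 genes of the S-adenosylmethionine cycle were higher and 3 lower. With HCC+ EVs under that scaling, 4 partners and readers were higher and 1 lower, 2 genes of demethylation were higher and 3 lower, 8 PRC1 subunits were higher and 3 lower, and 3 genes of the S-adenosylmethionine cycle were higher and 1 lower. The genes named in the 4 paragraphs above kept their call and direction, in the comparisons for which values are given, under RLE factors, total counts and the GC and length correction.

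**Figure D5:**
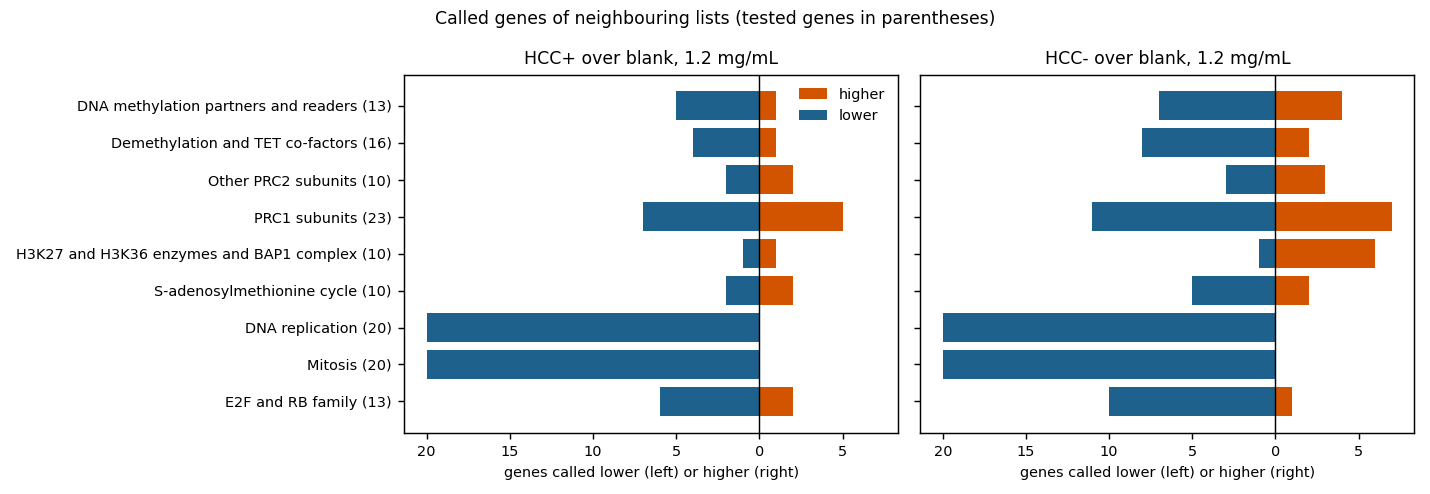
Numbers of genes called lower (bars to the left of 0) and higher (bars to the right) at 1.2 mg/mL in lists of genes that work with these enzymes, with HCC+ EVs against Blank and HCC- EVs against Blank. All 20 replication and all 20 mitosis genes are lower in both, and the other lists hold both directions.

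Many genes that these marks are known to keep silent had too few counts for the test. Of 19 germline genes known to be silenced by promoter methylation, 4 passed the filter: MAGEB2, SYCP3, PNLDC1 and DDX43. DDX43 passed it only through the groups at 1.2 mg/mL and so had to differ, so that its calls are not counted. This gene, an RNA helicase of germ cells, had 46 counts with 1.2 mg/mL of HCC+ EVs (10, 22 and 14) and 105 counts with 1.2 mg/mL of HCC- EVs (40, 27 and 38), against 0 counts in Blank and in the 4 groups of lower dose. Set against a floor of 3 counts over the Blank group and scaled to library totals, these counts gave ratios of 11.8 with HCC+ EVs and 26.6 with HCC- EVs. The floor allows for counting error in Blank only, so the ratios are neither lower limits nor a test. PNLDC1, which trims small RNAs of germ cells, was higher with HCC- EVs, at 1.14 CPM against 0.314 CPM in Blank (log2 fold change 1.84), and SYCP3 was not called with either source. MAGEB2, of the MAGE family of cancer-testis genes, averaged 203 ± 11.2 CPM in Blank (SD, n = 3) and so was not silent there. It was lower with both sources (log2 fold change -0.19 and -0.50), but not called with either with GC and length trends taken out (0.05 and -0.05). Of 27 developmental factor genes that PRC2 is known to bind, 12 passed the filter, and 2 were higher and none lower with HCC+ EVs, 4 higher and 2 lower with HCC- EVs. Among them, TBX3 rose in both (0.33 and 0.70) and LHX2 fell with HCC- EVs (-0.76 ± 0.12, adjusted p = 2.92e-06). DNA methylation and H3K27 methylation themselves were not measured.

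Genes of DNA replication and mitosis moved at the same dose. All 20 replication genes, such as the helicase subunit MCM4 and the ribonucleotide reductase subunit RRM2, were lower with HCC+ EVs (median log2 fold change -0.43, against 0.01 over all tested genes) and all 20 with HCC- EVs (-1.56, against 0.05). All 20 mitosis genes were lower as well (-0.56 and -1.01). The summed level of the replication genes was 3570 to 4060 CPM with HCC+ EVs and 1880 to 2000 CPM with HCC- EVs, against 5090 to 5190 CPM in Blank. Of 13 E2F and RB family genes, 2 were higher and 6 lower with HCC+ EVs and 1 was higher and 10 lower with HCC- EVs. Under total counts this list had 2 higher and 3 lower with HCC+ EVs and 2 higher and 9 lower with HCC- EVs, and with GC and length trends taken out 3 higher and 4 lower, and 3 higher and 9 lower. E2F1, an activator, was at 50.6 ± 4.54 CPM with HCC+ EVs and 17.8 ± 1.88 CPM with HCC- EVs, against 41.6 ± 4.53 CPM in Blank (SD, n = 3 each). Its mean with HCC+ EVs thus lay above that of Blank. Of the same list, RBL1 (-0.58), E2F8 (-0.45) and E2F4 (-0.36) were called lower with HCC+ EVs and TFDP2 (0.38) higher. With HCC- EVs E2F1 was lower than in Blank (log2 fold change -1.23 ± 0.09, adjusted p = 1.03e-12). Between HCC+ and HCC- EVs its log2 fold change was 1.51 ± 0.09 (adjusted p = 6.59e-14). Under scaling by total counts and with GC and length trends taken out, 19 of the 20 replication genes and 18 of the 20 mitosis genes were still called lower with HCC+ EVs, and 20 and 18 with HCC- EVs. The part of these genes in the falls of DNMT1, UHRF1 and EZH2 was not tested.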

How the data were processed

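PolyA RNA of 21 libraries, 3 for each of 7 groups, was sequenced after extraction with the RNeasy Mini kit and library preparation with NEBNext Ultra II, per the labels' protocols. The authors deposited raw read counts per gene with gene lengths and coordinates, and the submitters' processing notes name cutadapt 3.4, HISAT2 2.2.1, featureCounts 2.0.1 and GRCh38. The sources used here give neither the strand setting, nor the treatment of multiply mapped reads, nor the annotation release. Groups come from the sample labels.

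Genes passing filterByExpr (19556, with 99.96% of counts) were fitted with edgeR 4.0.16 in R 4.3.3: TMM factors, 7 group means over all 21 libraries, the robust quasi-likelihood F test, and Benjamini-Hochberg adjustment over all tested genes, with a call at an adjusted p under 0.05. An SE is the log2 fold change divided by the square root of F. The common biological coefficient of variation was 0.0885, with 14 residual degrees of freedom, and the procedure was tested on simulated data. CPM are TMM-scaled and RPKM divide them by the deposited exon length. Total counts of 31.22 M to 64.01 M set the precision. Comparisons with Blank share its 3 libraries.

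The 10 genes and all lists were chosen with earlier results of these data known. All 10 were named, with up to 4 called genes of smallest p from each other list in each of the 3 comparisons at 1.2 mg/mL, of which a selection is printed, the called markers of other cells and the nearest gene by correlation. DDX43, of the germline list, was singled out after its values were seen. Alternatives were RLE and total count scaling, no filter, only the groups compared, a replicate block, removal of GC content and length trends, DESeq2 1.42.0, leaving out each library, and 0.24 in place of 0.048 mg/mL in the interaction, the last chosen after seeing the data.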

Additional observations from a re-analysis of the deposited data

Results flagged for a closer look

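The difference between the EV sources was itself different at the highest and the lowest dose for 8 of the 10 genes. Of all tested genes 24.3% passed this test, 16.7% upward and 7.63% downward. The value is the log2 difference of HCC+ from HCC- EVs at 1.2 mg/mL minus that at 0.048 mg/mL, tested as an interaction in edgeR. It was 1.40 for UHRF1, 0.64 for DNMT1, 0.44 for DNMT3B (adjusted p = 0.00273), 0.37 for EED (adjusted p = 0.0349) and 0.31 for EZH2 (adjusted p = 0.0111). It was -0.49 for TET3, -0.49 for TET2 and -0.63 for TET1 (adjusted p = 0.0389). SUZ12 (0.30, adjusted p = 0.104) and DNMT3A (0.03, adjusted p = 0.9) did not pass.

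The values of UHRF1, DNMT1, DNMT3B, TET2 and TET3 passed with each library left out in turn. TET1 was lost in 9 such fits (adjusted p between 0.0501 and 0.119), without replicate 2 or 3 of either source at either dose or replicate 1 of HCC- EVs at 1.2 mg/mL. EED was lost in 7 (adjusted p between 0.0589 and 0.135), without replicate 2 or 3 of HCC+ EVs or replicate 3 of HCC- EVs at 1.2 mg/mL, or replicate 1 or 2 of either source at 0.048 mg/mL. EZH2 was lost without replicate 3 of HCC+ EVs at 1.2 mg/mL (0.27, adjusted p = 0.0505). SUZ12 passed without replicate 1 of HCC+ EVs (0.37, adjusted p = 0.0456) or of HCC- EVs (0.41, adjusted p = 0.0219) at 1.2 mg/mL, with no filter on low counts (0.31, adjusted p = 0.0294) and with GC and length trends removed (0.25, adjusted p = 0.00324). TET1 was also lost with no filter (-0.61, adjusted p = 0.0509), and under total counts DNMT3B (0.24, adjusted p = 0.0987), EZH2 (0.12, adjusted p = 0.367) and EED (0.17, adjusted p = 0.345) were lost. With 0.24 in place of 0.048 mg/mL, TET1 turned to 0.28 (adjusted p = 0.41) and TET2 was -0.14 (adjusted p = 0.505), while SUZ12 passed (0.55, adjusted p = 0.00282).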

How the results depend on the processing

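Between 1.2 mg/mL and Blank and between the sources at 1.2 mg/mL, every call but those of TET1 and TET2 held with each library left out in turn. Removal of GC content and length trends moved the median of all genes by 0.0565, 0.192 and -0.136 (log2) in 3 comparisons at 1.2 mg/mL. These were HCC+ with Blank, HCC- with Blank and HCC+ with HCC- EVs. Total count scaling moved the median by 0.12, 0.281 and -0.162 in the same comparisons. It turned DNMT3A between 1.2 and 0.24 mg/mL of HCC- EVs to 0.022 (adjusted p = 0.858), and 0.24 in place of 0.048 mg/mL turned the TET1 interaction to 0.28. The same replacement left 1 gene called lower in the interaction, in place of 3, and total counts left 2 higher, in place of 5.

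Counts of the 10 genes called moved as follows. For HCC+ EVs at 1.2 mg/mL against Blank, 1 was higher under total counts and 1 with GC and length trends removed. Against 0.24 mg/mL of HCC+ EVs, 2 were higher with those trends removed, 1 under total counts, and 2 were lower under total counts. Between the sources at 0.048 mg/mL, where none was called, DESeq2, the replicate block and total counts each called 1 higher, and no filter and only the groups compared each called 2 higher, the last with 1 lower. For 0.048 mg/mL of HCC- EVs against Blank, DESeq2 called 2 higher, and 0 were lower with the trends removed and 1 with only the groups compared. Between 0.24 and 0.048 mg/mL of HCC- EVs, 0 were higher with the trends removed, and DESeq2, no filter and only the groups compared each called 1 lower. RLE factors moved no count by over 1.5 times.

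With libraries left out, the counts called higher ran from 1 to 3 for 1.2 mg/mL of HCC- EVs against Blank, from 1 to 2 against 0.24 mg/mL of HCC- EVs, from 0 to 3 between 0.24 and 0.048 mg/mL of HCC- EVs, from 0 to 2 for 0.048 mg/mL of HCC- EVs against Blank, from 0 to 1 for 1.2 against 0.24 mg/mL of HCC+ EVs, from 0 to 1 between the sources at 0.048 mg/mL, and from 3 to 6 in the interaction. Counts called lower ran from 3 to 5 for 1.2 against 0.24 mg/mL of HCC+ EVs, from 1 to 2 between the sources at 1.2 mg/mL, from 0 to 3 for 0.048 mg/mL of HCC- EVs against Blank, and from 0 to 1 between 0.24 and 0.048 mg/mL of HCC- EVs. The cause was not tested.

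The replicate numbers did not pair the libraries: of 63 pairs with the same number, 1 had a correlation of deviations over 0.1 (range -0.0954 to 0.115), and 9 of 21 libraries correlated best with their own number. A replicate block left 138 of 140 values on their side of the threshold. Depth limits TET1 most, with 106 to 406 counts in a library.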
